A study of Mus musculus with 4 samples.

Results

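Npy, Cck and a set of neuroendocrine markers were followed in Myc-CaP cells, an established mouse prostate cancer line (strain FVB, Hi-Myc transgenic). The 8 genes were taken by name from the 52636 genes of the count table: the peptide genes Npy and Cck, the granins Chga, Chgb and Vgf, and Syp, Eno2 and Ncam1. Npy was chosen by its norepinephrine ratio, high in both lines, and Cck was chosen by its higher counts under FAK knockdown. Their values in those comparisons are therefore a description. The other 6 genes were taken as known markers to set beside them.

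RNA-seq was run on 4 libraries, 1 in each group. All cells were Myc-CaP cells stably carrying short hairpin RNAs, which targeted either FAK, the focal adhesion kinase encoded by Ptk2 (the shFAK line), or served as negative control (the shNC line). Each line received norepinephrine at 10 µM or vehicle for 24 h. Whether a line was 1 clone or a pool, and how many hairpins were used, is not given in the sources used here. Loss of FAK and anything else that set these lines apart cannot be told apart. With 1 library in each group, no difference below has a replicate check, and no p-value was computed. Intervals cover counting error only, and without molecular identifiers 1 molecule can give several reads.

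Neuropeptide Y and cholecystokinin are made as precursors, cut at basic residues by prohormone convertases, trimmed by carboxypeptidase E and amidated by the enzyme Pam. Neuropeptide Y is released with norepinephrine by sympathetic nerves and acts through Npy receptors, while cholecystokinin is a gut and brain peptide that acts through Cckar and Cckbr. Chromogranins, synaptophysin, neuron-specific enolase (Eno2) and the adhesion molecule Ncam1 are the usual tissue markers of neuroendocrine differentiation in prostate cancer. Vgf is a granin-like precursor first known as a gene induced by nerve growth factor.

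Total counts were 23410486 to 29948640 per library. Lists of 4 values below run from shNC with vehicle to shNC with norepinephrine, then shFAK with vehicle and shFAK with norepinephrine. Ptk2 had 3547, 3158, 1294 and 1248 counts, lower in both shFAK libraries as labelled. Of the epithelial markers, Krt19 had 193 to 280 counts, but Epcam had at most 15, Cdh1 at most 7 and Krt18 at most 4. Krt8 had 153, 165, 50 and 48 counts, with near-identical copies in the genome, and met the size rule defined below as lower in shFAK (log2 -1.42 and -1.60). CPM, the usual depth-scaled count (on TMM-scaled library sizes), summed to 3.04 to 4.64 for 3 basal cell markers, 7.58 to 13.4 for 4 fibroblast markers, 0.825 to 1.67 for 4 glial markers, 0.900 to 1.39 for 3 immune markers and 0.0377 to 0.188 for 3 endothelial markers. In bulk RNA, more cells expressing a gene and more RNA per cell cannot be told apart. The shFAK norepinephrine library had the lowest total but counts for 23121 genes, against 20442 to 21678 in the others. It held 119 genes with at least 8 counts there and at most 2 in each other library, against 4 to 9 such genes in the others.

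The sequences just before the start sites of Npy and Cck, the members with the largest ratios, are shown with that of Chga, a marker with almost no reads. Each is the 250 bases before the RefSeq start on GRCm38.p6, written 5′ to 3′ on the strand of the gene. Capitals mark TGACG on either strand, the half-site of the cAMP response element.
Npy (chr6:49822460-49822709, plus strand): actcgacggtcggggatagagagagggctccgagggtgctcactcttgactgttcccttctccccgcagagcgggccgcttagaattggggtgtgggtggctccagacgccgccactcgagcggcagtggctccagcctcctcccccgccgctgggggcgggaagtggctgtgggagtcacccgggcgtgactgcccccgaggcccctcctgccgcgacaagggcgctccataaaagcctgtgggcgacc
Cck (chr9:121495695-121495944, minus strand): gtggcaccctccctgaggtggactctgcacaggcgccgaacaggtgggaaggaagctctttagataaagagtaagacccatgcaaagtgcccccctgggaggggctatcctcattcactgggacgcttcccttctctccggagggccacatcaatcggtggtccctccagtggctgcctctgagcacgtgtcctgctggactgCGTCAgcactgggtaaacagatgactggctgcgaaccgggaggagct
Chga (chr12:102554691-102554940, plus strand): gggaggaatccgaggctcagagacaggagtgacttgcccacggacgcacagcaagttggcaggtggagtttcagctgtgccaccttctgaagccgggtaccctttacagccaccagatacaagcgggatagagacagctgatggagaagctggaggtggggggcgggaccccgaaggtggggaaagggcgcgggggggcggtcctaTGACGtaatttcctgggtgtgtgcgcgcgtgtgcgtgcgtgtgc

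The Npy window held no TGACG. Cck had 1 match, on the opposite strand at bases -47 to -43 from the start, and Chga had 1 at -44 to -40. The full element, TGACGTCA, which contains the half-site, was in the Chgb window at -72 to -65 and in none of the windows of Npy, Cck, Chga, Syp and Eno2. Over the 32851 windows of the same length in the RefSeq table, 17.8% held TGACG and 1.55% held TGACGTCA. A match is a run of letters, not a shown binding site. Sequences were matched for 6 of the 8 genes.

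Npy (ENSMUSG00000029819, mm10 chromosome 6, 49822710 to 49829507, plus strand) had 66 and 213 counts in the shNC line with vehicle and with norepinephrine, and 115 and 289 in the shFAK line. In CPM these were 2.23 (95% Clopper-Pearson interval 1.72 to 2.83), 7.99 (6.95 to 9.14), 4.33 (3.58 to 5.20) and 12.0 (10.7 to 13.5). Both norepinephrine libraries were above both vehicle libraries, and within each treatment the shFAK library was the higher. All 3 neighbours in this order differed beyond counting error. The smallest step was from shNC norepinephrine to shFAK norepinephrine, at a log2 ratio of 0.59 (99% interval 0.25 to 0.93).

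The norepinephrine ratio of Npy was 3.50-fold in shNC (log2 1.81, interval 1.32 to 2.40) and 2.75-fold in shFAK (log2 1.46, 1.06 to 1.90). Its hairpin ratio was 1.91-fold in vehicle (log2 0.94, 0.38 to 1.56) and log2 0.59 in norepinephrine. The library with both knockdown and norepinephrine was 5.26-fold above the library with neither (log2 2.39, 1.93 to 2.97). The response of shFAK minus that of shNC was -0.35 on the log2 scale, with an interval of -1.01 to 0.31 that held 0. Of the 12351 genes that reached 1 CPM in a library on total counts, 5 had a higher norepinephrine ratio than Npy in shNC and 47 in shFAK. Among the 11833 of them that averaged 1 CPM or more, these were 3 and 8. Npy was chosen by these ratios, so its ranks are a description.

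Cck (ENSMUSG00000032532, chromosome 9, 121489824 to 121495694, minus strand) had 482, 791, 2781 and 3251 counts in the same order of libraries. In CPM these were 16.3 (14.9 to 17.8), 29.7 (27.6 to 31.8), 105 (101 to 109) and 135 (131 to 140). Both shFAK libraries were above both shNC libraries, the reverse of Npy, whose levels were split first by treatment. The hairpin ratio was 6.42-fold in vehicle (log2 2.68, 2.50 to 2.87) and 4.55-fold in norepinephrine (log2 2.19, 2.04 to 2.34). The 4 fibroblast markers also summed higher in shFAK, at 13.2 and 13.4 CPM against 9.72 and 7.58, nearly all from Pdgfra (276, 198, 326 and 299 counts). Of the list, 2 of 4 genes were detected in every library, Col1a2 had at most 1 count and Dcn 0. Col1a1 had 11, 4, 24 and 24 counts and met the size rule in the norepinephrine hairpin pair (log2 2.26, 0.82 to 5.43). Col1a1 passed the filter defined below only through shFAK norepinephrine, the higher library of that pair. Its call there rests on few counts and is a description. Basal markers summed to 4.64 and 3.54 CPM in shFAK against 3.27 and 3.04 in shNC. Glial markers summed to 1.43 and 1.67 CPM in shFAK against 1.01 and 0.825, and immune markers to 1.39 and 1.08 against 0.945 and 0.900, with Tyrobp at 0 and Ptprc at no more than 1 count. Endothelial markers went the other way, at 0.0377 and 0.167 CPM in shFAK against 0.169 and 0.188 in shNC. Whether any cells of these kinds were present was not tested, nor was any part of them in the Cck ratio.

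Cck was also higher with norepinephrine in each line, by less than the 2-fold size asked for here. The ratio was 1.82-fold in shNC (log2 0.86, 0.65 to 1.08) and 1.29-fold in shFAK (log2 0.37, 0.27 to 0.47). The lowest and the highest of the 4 libraries differed 8.28-fold. The response of shFAK minus that of shNC was -0.49 on the log2 scale (-0.73 to -0.26). Such an interval left out 0 for 23.2% of the 12351 genes tested.

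**Figure D1:**
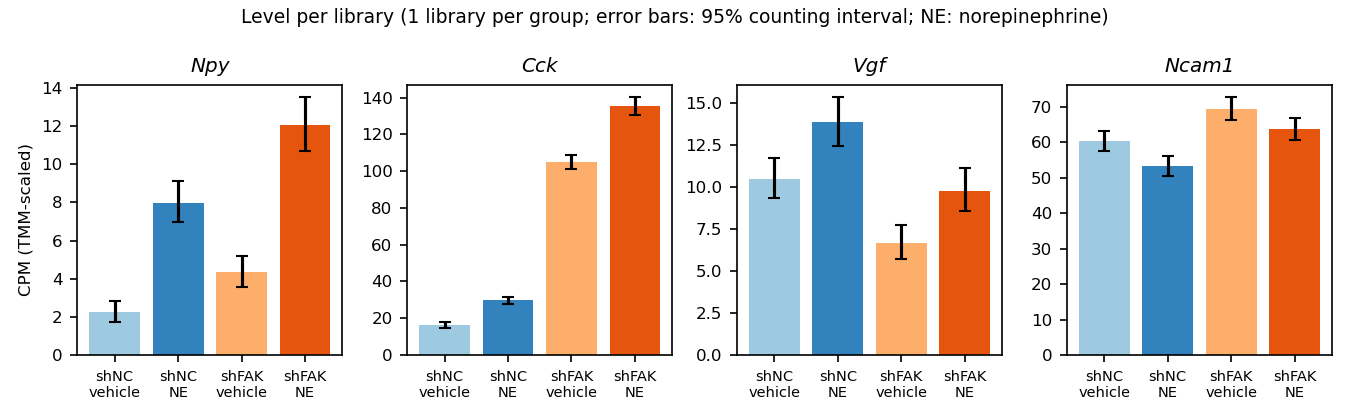
CPM of Npy, Cck, Vgf and Ncam1 in the 4 libraries, each panel with its own axis from 0; error bars are 95% Clopper-Pearson counting intervals of 1 library. Npy is highest in the 2 norepinephrine libraries (7.99 and 12.0), Cck in the 2 shFAK libraries (105 and 135), and Vgf is lowest in shFAK vehicle (6.67).

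A gene's ratios were examined where it reached a CPM of 1 in a library, here on total counts without TMM scaling. This filter was passed by 12351 genes, called tested genes here, and by 4 of the 8 members (Npy, Cck, Vgf and Ncam1). A gene met the size rule where its log2 ratio reached 1 or -1 or went beyond, with a 99% interval that left out 0. In the norepinephrine comparison 1 tested member met the rule in shNC, where 0.858% of all tested genes did, and 1 in shFAK, against 0.874%. That gene was Npy in both. In the hairpin comparison 1 member met it in vehicle, against 1.88% of all genes, and 1 in norepinephrine, against 3.25%; that gene was Cck in both. Since these contrasts chose Npy and Cck, nothing is read from the counts. Just outside the rule were Npy in the vehicle hairpin pair (0.94) and Cck with norepinephrine in shNC (0.86). The nearest inside was Npy with norepinephrine in shFAK (1.46).

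The norepinephrine ratios ran with gene length over all tested genes (Spearman rho of -0.49 for the shNC pair, -0.29 for the shFAK pair), as did the hairpin ratios (0.32 in vehicle and 0.47 in norepinephrine). These are correlations across genes, which are not independent and share the libraries. Npy is short, at 566 bases, and Ncam1 long, at 8664. With a spline trend on length taken off each library, Npy was at 1.64 and 1.40 with norepinephrine and at 1.10 and 0.86 for the hairpin, and its vehicle hairpin ratio then met the size rule. Cck was at 2.78 and 2.37 for the hairpin.

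Vgf (ENSMUSG00000037428, chromosome 5, 137026392 to 137033351) was the 1 granin of the set with a substantial level. It had 310 and 369 counts in shNC, and 177 and 235 in shFAK, with vehicle and with norepinephrine. Levels were higher with norepinephrine in each line and lower in shFAK under each treatment. The norepinephrine ratio was log2 0.40 in shNC (0.11 to 0.69) and 0.55 in shFAK (0.18 to 0.93). The hairpin ratio was -0.64 in vehicle (-1.01 to -0.30) and -0.50 in norepinephrine (-0.82 to -0.19). None of these met the size rule. The libraries shNC vehicle and shFAK norepinephrine were next to each other and did not differ beyond counting error (log2 0.10, -0.23 to 0.43). Vgf thus had norepinephrine ratios of the same sign as Npy and Cck and hairpin ratios of the opposite sign.

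**Figure D2:**
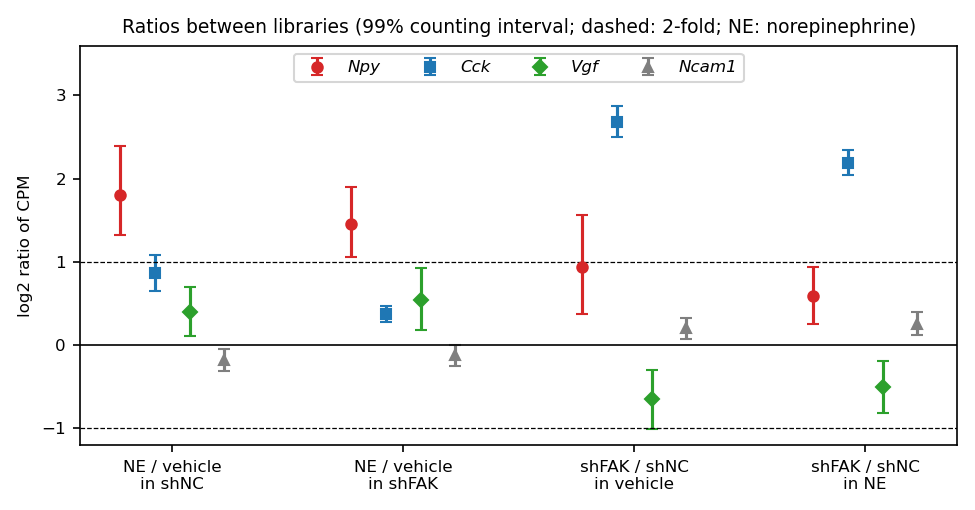
Log2 ratios of CPM of the 4 tested members in the 4 comparisons; error bars are 99% Clopper-Pearson counting intervals and dashed lines mark 2-fold. Npy lies above the upper dashed line in both norepinephrine comparisons (1.81 and 1.46), Cck in both hairpin comparisons (2.68 and 2.19), and Vgf is below 0 in both hairpin comparisons (-0.64 and -0.50).

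Ncam1 (ENSMUSG00000039542, chromosome 9, 49502136 to 49798925), the neural cell adhesion molecule, had 1787, 1417, 1840 and 1528 counts in the same order of libraries. Its 4 levels, 53.1 to 69.3 CPM, lay closer together on the log2 scale than those of the other tested members. Its norepinephrine ratios were -0.18 in shNC and -0.12 in shFAK, and its hairpin ratios 0.20 and 0.26. With the length trend taken off these were 0.01, -0.08, 0.07 and -0.02, so no direction is given. Its exons overlap an annotated gene on the opposite strand, Gm11149, which had 2 to 10 counts, and the library kit does not mark strand.

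The other 4 markers were near 0 in all 4 libraries. Chga (ENSMUSG00000021194, chromosome 12, 102554969 to 102565028), chromogranin A, had 4 counts in shFAK norepinephrine and 0 in the other 3 libraries. Chgb (ENSMUSG00000027350, chromosome 2, 132781278 to 132795079), chromogranin B, had 2, 2, 3 and 2 counts in the same order of libraries. Syp (ENSMUSG00000031144, chromosome X, 7638471 to 7653256), the vesicle membrane protein synaptophysin, had 5, 0, 1 and 1. Eno2 (ENSMUSG00000004267, chromosome 6, 124760053 to 124769673) had 4, 2, 0 and 4.

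A count of 0 allows up to 3 counts, or 0.101 to 0.125 CPM in these libraries, and no ratio of these 4 genes is given. A difference between groups was not detectable at this depth. The only library with Chga counts was the one that held 119 genes with counts of their own, and the part of that excess was not tested. Exons of Syp overlap Gm14703 on the opposite strand, which had at most 1 count.

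Per length, Cck had the highest level of the 8 in each library, from 12.5 to 104 RPKM (CPM divided by the gene length in kilobases). Npy ran from 3.94 to 21.3 RPKM, Ncam1 from 6.13 to 8.004 and Vgf from 2.24 to 4.65. In shNC vehicle Ncam1 stood above Npy (6.96 against 3.94 RPKM), and in shNC norepinephrine below it (6.13 against 14.1). The 4 low markers had at most 0.0604 RPKM. Paralogs of the low markers were abundant: the ubiquitous enolase Eno1 had a mean of 289 RPKM, with near-identical copies that make its counts uncertain, muscle enolase Eno3 107, the synaptogyrin Syngr2 129 and the synaptophysin-like Sypl 10.7. Syngr2 overlaps another annotated gene. None of these 4 genes met the size rule in any comparison.

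Of the receptors and relatives of both peptides, none was measured above a trace. Of the list of Npy, Pyy, Ppy, 4 Npy receptors and the neuropeptide-cutting protease Dpp4, 1 of 8 genes passed the filter, Npy itself. The receptors Npy1r and Npy4r had at most 1 and 4 counts, and Npy2r, Npy5r, Pyy, Ppy and Dpp4 had 0 in all 4 libraries. Of the cholecystokinin list only Cck passed. Cckar had at most 1 count, Cckbr at most 2, and the related peptide gene gastrin (Gast) had 0.

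The enzymes that finish such precursors were present in part. Of 9 processing genes, 5 passed the filter and none met the size rule in any of the 4 comparisons. Cpe had 185 to 201 RPKM, Furin, the convertase of the constitutive pathway, 20.2 to 23.8, Cpd 10.5 to 18.9, Pcsk7 10.4 to 11.0 and Pam 5.96 to 6.36. The convertases of regulated secretory granules were not: Pcsk1 had 0 counts in every library and Pcsk2 at most 1. With norepinephrine the median of the 5 was -0.05 in the shNC pair and 0.07 in the shFAK pair, beside 0.00 and 0.00 over all tested genes, and 0.07 and 0.09 for the hairpin, beside 0.00 and 0.02. Exons of Pcsk7 and Furin overlap genes on the opposite strand, as do those of Edn1, Map2 and Celf3 below.

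Among 7 granins 2 passed, Vgf and Scg5, the chaperone of Pcsk2. Scg5 had 15, 8, 24 and 24 counts in the same order of libraries. It met the size rule in the norepinephrine hairpin pair, where 3.25% of all tested genes did (log2 1.52, 0.21 to 3.55) and not in vehicle (0.75, -0.44 to 2.19). Scg5 passed the filter only through shFAK norepinephrine, the higher library of that pair, so its call there is a description. Scg2, Scg3 and Pcsk1n had 0 in all 4 libraries.

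Of 19 other peptide hormone genes, 3 passed and none met the size rule. Edn1, endothelin, had 543, 495, 686 and 571 counts in the same order of libraries. Calcb and Calca, the calcitonin gene-related peptides, had 127 and 45 counts in shFAK norepinephrine against 74 to 84 and 22 to 24 in the other libraries. Calca was just short of the rule there, at 0.99 for norepinephrine and 1.00 for the hairpin, in the library with the excess of detected genes. Calca also passed the filter only through that library. Ucn, urocortin, had 5 to 14 counts. The neuropeptides Tac1, Nts, Adcyap1, Penk, Pdyn and Crh had 0 in every library.

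**Figure D3:**
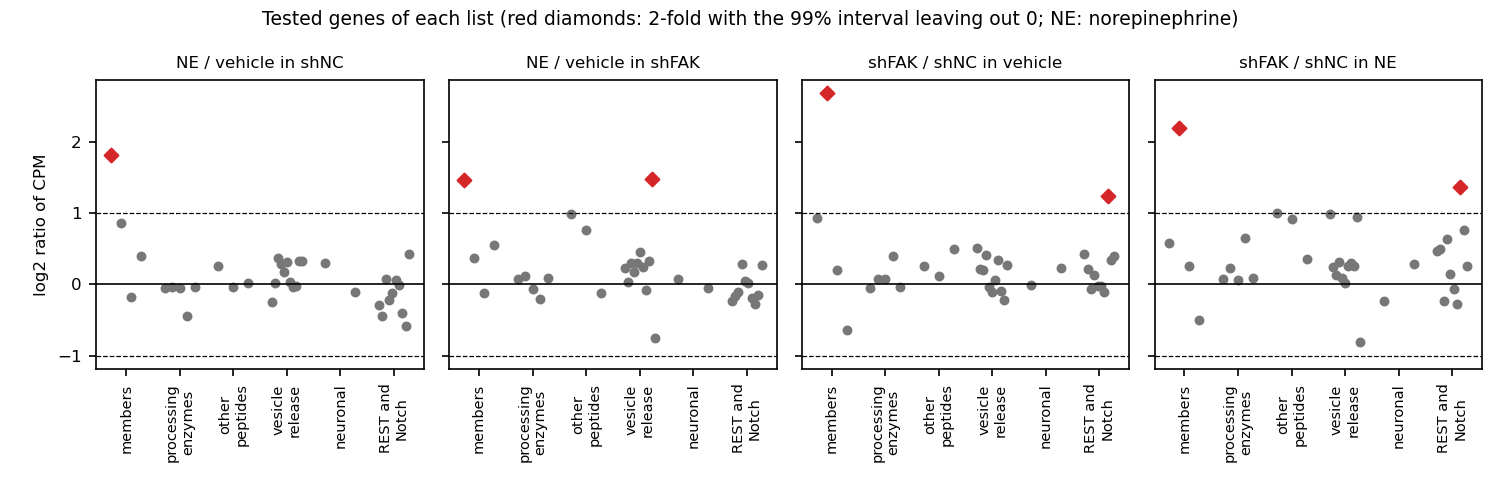
Log2 ratios of CPM of every tested gene in 6 lists, 1 point per gene, in the 4 comparisons; red diamonds met the 2-fold size rule and dashed lines mark 2-fold. The processing enzymes, other peptides and neuronal genes hold no red diamond. In the first column the red diamond is Npy in the norepinephrine panels (1.81 and 1.46) and Cck in the hairpin panels (2.68 and 2.19). The others are Ptprn with norepinephrine in shFAK (1.48) and Notch1 in the hairpin panels (1.24 and 1.36).

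Vesicle and release genes were partly expressed. Of 24, 11 passed the filter, and 1 met the size rule, with norepinephrine in shFAK, where 0.874% of all tested genes did. That was Ptprn, a granule membrane protein, with 9 counts in shFAK vehicle and 26 in shFAK norepinephrine (log2 1.48, 0.23 to 3.37), against 12 and 14 in shNC. Ptprn passed the filter only through the shFAK norepinephrine library, the higher of that pair, so its call too is a description. Genes of the list with high levels included Vamp2 and Stx1a of the fusion machinery and the small GTPase Rab27a, which overlaps another annotated gene. Stx1a, syntaxin, had 549, 617, 456 and 564 counts, with norepinephrine ratios of 0.32 and 0.45. Snap25 and Sv2b had 0 counts. The list median with norepinephrine was 0.18 in shNC and 0.24 in shFAK, and for the hairpin 0.21 and 0.25.

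Of 16 neuronal genes 2 passed, and neither met the size rule. Uchl1, a deubiquitinase used as a neuronal marker, had 17272 to 22571 counts and 419 to 519 RPKM, more than any of the 8 members, with norepinephrine ratios of 0.30 in shNC and 0.07 in shFAK. Its exons overlap an antisense gene. Map2, a microtubule protein, had 123 to 156 counts. Tubb3 had at most 7 and Celf3 at most 13, and Dcx, Nefl and Nefm had 0.

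Of 17 genes of neuroendocrine lineage control, 1 passed the filter: Hes6, a bHLH factor, with 405 to 484 counts and ratios of 0.40 and 0.22 with norepinephrine. Foxa2, Pou3f2, Pou3f4 and Peg10 had 0 counts in all 4 libraries. Dll3, a Notch ligand, had 3 to 9 counts and Sox2 at most 4. Insm1 (ENSMUSG00000068154, chromosome 2, 146221921 to 146225020), a zinc finger factor of neuroendocrine differentiation, had 2 and 13 counts in shNC with vehicle and norepinephrine, and 0 and 22 in shFAK. Both norepinephrine libraries were above both vehicle libraries, as for Npy.

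The Insm1 ratio was 3.95-fold in shNC (log2 1.98, 0.23 to 7.28), from 2 vehicle counts. In shFAK it was at least 8.10-fold higher with norepinephrine, against a floor of 3 counts in the vehicle library, with the 22 counts taken as exact. The 99% lower limit of the ratio, which allows for counting error in both libraries, was log2 2.02. Its highest level was 0.916 CPM, under the filter. Of the 14905 genes with counts under the filter, 2 met the size rule upwards in both lines, or 0.0134%. These were Insm1 and Hhex, a homeobox factor named here after its values were seen, with 0, 8, 0 and 10 counts. The share comes from the same counts as the Insm1 ratios, so it is a description only. Of the same genes 32 met it upwards in shNC and 268 in shFAK. The part of the excess of detected genes in the shFAK norepinephrine library was not tested.

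**Figure D4:**
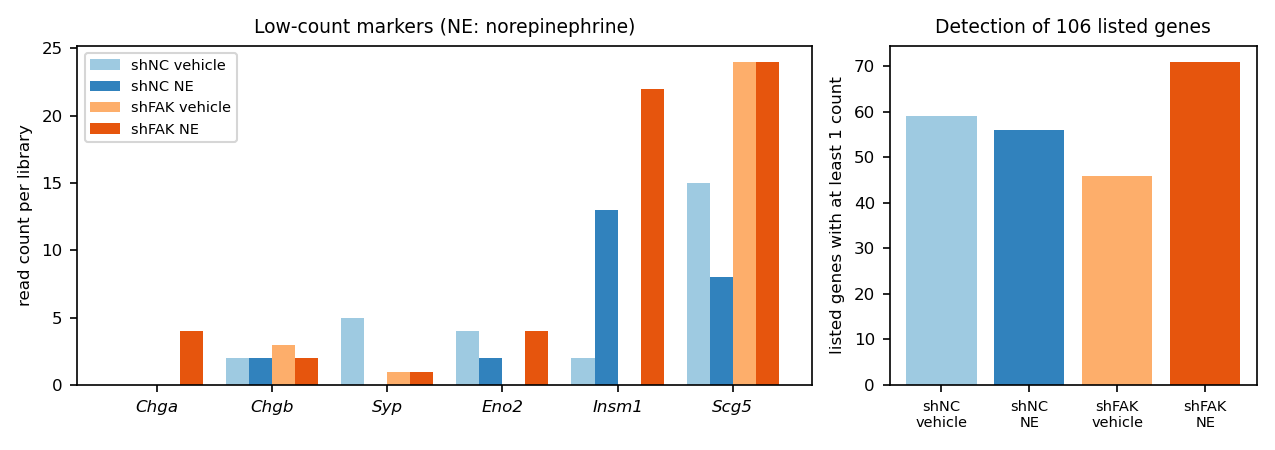
Left, read counts of 6 low-count markers in the 4 libraries; right, how many of 106 listed neuroendocrine and neuronal genes had at least 1 count in each library. Insm1 has 13 and 22 counts in the norepinephrine libraries and 2 and 0 in vehicle, Chga has counts in 1 library, and detection is highest in shFAK norepinephrine (71 genes).

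Over the 106 genes of the neuroendocrine, vesicle and neuronal lists, 59 and 56 had a count in the shNC libraries with vehicle and norepinephrine, and 46 and 71 in the shFAK ones. The last library had 13 of them that no other library held, against 1 to 4 in the others. The order is that of detected genes over the whole table.

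The list of Rest, its corepressors and Notch genes was measured in full. Rest, the repressor of neuronal genes outside the nervous system, had 1412, 1045, 1695 and 1304 counts in the same order of libraries. Its norepinephrine ratios were -0.28 and -0.23 and its hairpin ratios 0.42 and 0.47. Of the 10 genes, 1 met the size rule in each hairpin pair, beside 1.88% of all tested genes in vehicle and 3.25% in norepinephrine. It was Notch1, a receptor whose signal restrains neuroendocrine fate in several tissues, which had 237 and 161 counts in shNC against 503 and 376 in shFAK. Its hairpin ratio was 1.24 in vehicle (0.95 to 1.55) and 1.36 in norepinephrine (1.02 to 1.74). Its exons overlap antisense genes. The corepressors Rcor1 and Rcor2 were at 83.3 and 147 CPM on average, and none of their ratios met the rule. Hdac1, which has near-identical copies, and Hdac2, histone deacetylases, did not meet it either. The median of the 10 genes was -0.17 and -0.13 with norepinephrine, and 0.17 and 0.36 for the hairpin. Rest and Notch1 are long, at 7222 and 14232 bases. Over all tested genes, longer genes ran lower with norepinephrine and higher with the hairpin, the same signs as here. The part of this length trend in the ratios of the list was not tested, so no direction is read from them.

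Genes with levels most like those of Npy over the 4 libraries were sought among 10226 named protein-coding genes averaging 1 CPM or more, by the root mean square difference of centred log2 CPM. The nearest 5 were Kctd19 (0.06), Vwa5b2 (0.26), Vwce (0.35), Hba-a1 (0.42) and Notch3 (0.46). Kctd19 had 10, 37, 19 and 46 counts in the same order of libraries, so its likeness rests on few reads. Hba-a1, an alpha-globin gene, had 239, 454, 347 and 487, and shares near-identical sequence with Hba-a2. Vwa5b2 and Vwce also share sequence with other annotated genes, and exons of Kctd19 and Notch3 overlap genes on the opposite strand.

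For Cck the nearest 5 were Psmb8 (0.25), Folh1 (0.30), Slpi (0.30), Cxcl5 (0.32) and Entpd4b (0.34). Folh1, which encodes prostate-specific membrane antigen, had 70, 96, 607 and 541 counts, with a norepinephrine ratio of -0.02 in shFAK where Cck had 0.37. Slpi, a secreted protease inhibitor, had 126, 185, 432 and 595 counts, and its norepinephrine ratios of 0.70 and 0.60 were of the same sign as those of Cck in both lines. The counts of Psmb8 and Entpd4b are uncertain, since other annotated genes share their sequence. They are also few, at 7, 10, 67 and 59 for Psmb8 and 22, 19, 82 and 106 for Entpd4b. Likeness over 4 libraries is a description of these libraries.

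**Figure D5:**
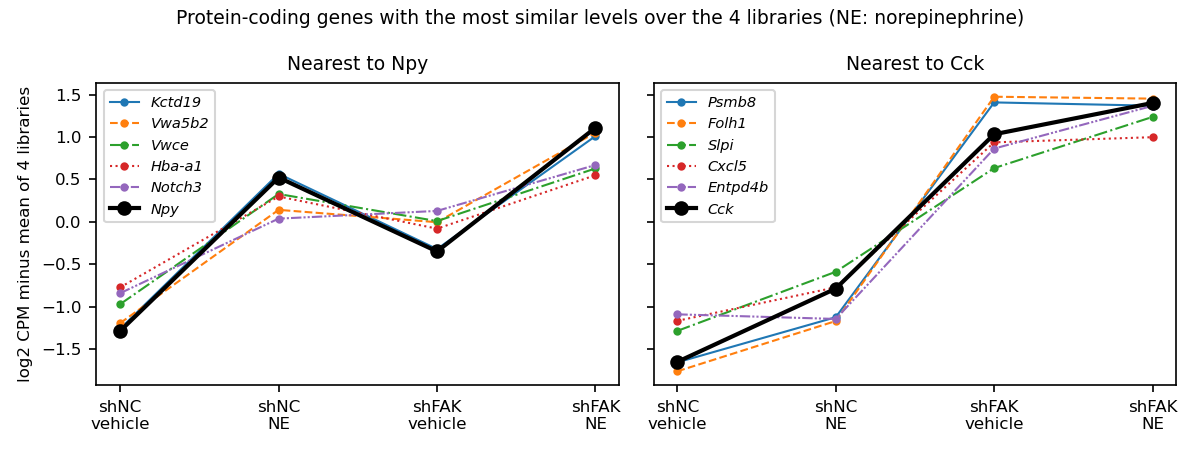
Log2 CPM minus the mean of the 4 libraries for Npy (left) and Cck (right), thick black lines, with the 5 nearest genes of each; lines join the libraries only to guide the eye. Kctd19 lies almost on Npy (difference 0.06), while the genes nearest Cck share its step between shNC and shFAK.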

How the data were processed

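RNA-seq counts of 4 libraries, 1 per group, were used. The authors deposited raw read counts per gene, with gene length and mm10 coordinates. HISAT2 2.0.5 and featureCounts 1.5.0-p3 are named in the submitters' processing notes. The annotation release, strand setting and treatment of multi-mapping reads are not given in the sources used here. Coordinates equalled GENCODE M21 for 95.2% of the identifiers found there. Columns were assigned by sample title, and no other per-sample column was left.

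TMM factors came from edgeR 4.0.16, run under R 4.3.3. All genes with a CPM of at least 1 in at least 1 library, on total counts without TMM scaling, were tested (12351, 10818 of them protein-coding). Log2 ratios used a prior count of 2 and exact 99% Clopper-Pearson intervals. Differences of ratios used a 99% normal approximation. RPKM used the deposited gene length. The computation was tested on simulated Poisson counts. No p-value was computed, since each group had 1 library. Sequence sharing was at least 95% identity over at least 100 bases, by minimap2 2.31 on M21 transcripts.

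The members and lists were chosen with earlier results of these data known. Named genes were the 8 members, the genes of each list that met the size rule and averaged 1 CPM or more, up to 4 others of each list with the highest mean RPKM, and the 5 genes nearest in pattern to Npy and to Cck. Further genes named, chosen after their values were seen, are those at 0 or at few counts, Pam, Ptprn, Rest, Slc18a2 and Syt7. The 10 alternatives tried were scaling by upper-quartile factors, by the size factors of DESeq2 1.42.0 or by totals only, prior counts of 0.5 and 10, no filter, a CPM of 5 or more, a 1.5-fold threshold, protein-coding genes alone and a spline trend on log gene length taken off. Some genes of the lists are not reported here.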

Additional observations from a re-analysis of the deposited data

Results flagged for a closer look

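The norepinephrine response of Cck differed between the lines by -0.49 on the log2 scale, shFAK minus shNC (99% counting interval -0.73 to -0.26), from ratios of 0.37 in shFAK and 0.86 in shNC. The difference is larger than counting error, but it was not tested against variation between cultures, and 23.2% of the 12351 tested genes had such an interval. On the linear scale its sign is the opposite: Cck was 13.4 CPM higher with norepinephrine in shNC (10.1 to 16.7) and 30.5 CPM higher in shFAK (22.6 to 38.5), a difference of 17.1 CPM (8.496 to 25.8). The baseline was 16.3 CPM in shNC and 105 in shFAK.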

How the results depend on the processing

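The Npy norepinephrine ratios stayed above 1 under all 10 alternatives, at 1.64 to 1.83 in shNC and 1.40 to 1.48 in shFAK. So did the Cck hairpin ratios, at 2.66 to 2.78 in vehicle and 2.13 to 2.37 in norepinephrine. The 1.5-fold threshold could not change a ratio, and the filter and protein-coding settings act on it only through the scaling. With the length trend taken off, Cck was at 2.37 in norepinephrine, and 2 members, Npy and Cck, met the rule in the vehicle hairpin pair. At the 1.5-fold threshold the members that met it numbered 2 with norepinephrine in shNC (Npy and Cck), 3 for the hairpin in vehicle (Cck, Npy and Vgf) and 2 for the hairpin in norepinephrine. Over all genes, the counts for norepinephrine in shNC (106) became 62 with a prior count of 10, 173 without a filter, 29 at a CPM of at least 5, 460 at 1.5-fold and 49 among protein-coding genes. Those in shFAK (108) became 67, 403, 14 and 210 under the first 4 of these. The hairpin counts in vehicle (232) became 86 at a CPM of at least 5 and 653 at 1.5-fold, and in norepinephrine (401) 663 without a filter, 136 at a CPM of at least 5 and 1391 at 1.5-fold. These settings change which genes or which sizes are counted; for the length trend the cause was not tested. Each count was made with 1 library per group, and genes with few counts, Chga, Chgb, Syp, Eno2 and Insm1 among them, are limited by depth. No paired analysis was possible because each group had 1 library and the labels carry no replicate numbers.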

Other observations

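On the linear scale, Npy was 5.76 CPM higher with norepinephrine in shNC (99% counting interval 4.18 to 7.34) and 7.70 higher in shFAK (5.60 to 9.80). The increments differed by 1.94 CPM (-0.69 to 4.56), an interval that held 0, as it did on the log2 scale. Vgf was 3.37 CPM higher in shNC (0.97 to 5.78) and 3.11 higher in shFAK (1.02 to 5.20), a difference of -0.26 (-3.45 to 2.93). Cck was the 1 member of the 4 tested whose increments differed beyond counting error.

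Slc18a2, the vesicular monoamine transporter that loads norepinephrine into vesicles, had 66, 75, 72 and 38 counts in the same order of libraries, and was named after its values were seen. Its norepinephrine ratios were 0.33 in shNC (-0.31 to 0.99) and -0.75 in shFAK (-1.57 to -0.02). Syt7, a calcium sensor of vesicle release, also named afterwards, had 759, 576, 966 and 1029 counts, with norepinephrine ratios of -0.25 (-0.45 to -0.04) and 0.23 (0.07 to 0.40). The hairpin ratios of Syt7 were larger, at 0.51 in vehicle (0.33 to 0.69) and 0.99 in norepinephrine (0.79 to 1.18). The second was just short of the size rule. Syt7 is 7274 bases long, and hairpin ratios rose with gene length over all tested genes. Neither Slc18a2 nor Syt7 met the size rule in any comparison.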
